A study of Mus musculus with 6 samples.

Results

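The interferon response genes described here are 39 genes chosen by name, from the receptors that bind interferon to the antiviral proteins that interferon induces. Each matched exactly 1 of the 23282 gene rows counted in every library. Interferons are secreted when a cell detects foreign or misplaced nucleic acid. They bind cell surface receptors whose kinases, JAK1 and TYK2 among them, activate STAT proteins, and these act with interferon regulatory factors on the promoters of many target genes. Astrocytes both produce type I interferon and respond to it, and many target genes keep a low basal level in the absence of infection.

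RNA was sequenced from mouse astrocytes that the labels call Ink4a -/- and the study's methods Ink4a/Arf-/-. The gene CDKN2A at this locus encodes both tumor suppressors, and Arf is thus lost as well by the study's account. The control group was transfected with the empty plasmid pcDNA3.1-puro and the JAG1-overexpressing group with pcDNA3.1-JAG1-puro, and each group had 3 libraries. The knockout is thus shared by both groups, although the labels give the controls the genotype WT, and whether the cells of a group were a clone or a pool, and whether its libraries came from separate transfections, is not given in the sources used here. If they did not, p-values measure only technical spread. The libraries are QuantSeq libraries, which read the 3′ end of polyadenylated RNA, so that levels of different genes can be compared without division by transcript length. The unit of level is CPM, reads per 1000000 library reads with TMM scaling.

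The libraries held between 14341634 and 20489062 reads counted on genes, and 11712 genes had enough reads to be tested. A count of 3 reads, taken as the limit of detection, equals between 0.148 and 0.206 CPM; it covers counting error only. JAG1 itself had 8.99, 10.8 and 11.2 CPM in the control libraries and 15.2, 13.6 and 13.8 CPM in the JAG1-overexpressing libraries (log2 fold change 0.46, SE 0.11, adjusted p = 0.00446). Whether 3′ reads of the plasmid's JAG1 were counted for this gene is not given in the sources used here. The value therefore does not give the size of the overexpression. CDKN2A had at most 5 reads in a library. Of the 12 astrocyte markers listed, GFAP and AQP4 had no read in any library and SLC1A2 and SLC1A3 at most 2, so that these defining markers were near or under the limit of detection, whereas VIM, which other cell types also express, had between 2865 and 3298 CPM. Of the 8 astrocyte markers tested, 7 were lower in JAG1-overexpressing libraries. The log2 fold changes of the 8 ran from −3.33 to 0.049, with a median of −1.30. Over all tested genes, 27.7% were lower and 27.4% higher. The summed level of the astrocyte markers was 3558 ± 246 CPM in control and 3391 ± 33.1 CPM in JAG1-overexpressing libraries (SD, n = 3 each), with overlapping groups. Most of this sum was VIM, so that it says little about the other astrocyte markers. Of 16 markers of microglia and macrophages, the other brain cells known for strong interferon responses, 7 had at most 3 reads in every library and 5 were tested, 2 of them higher and 1 lower, with log2 fold changes from −4.42 to 1.34 and a median of 0.19. Among the genes not tested, PTPRC, AIF1 and TYROBP had at most 4 reads in a library. Markers of fibroblasts and mural cells also moved with the groups, from between 822 and 858 CPM in sum to between 316 and 364 CPM, with 5 of the 7 tested lower and 1 higher. So did neuron markers, from between 100.3 and 110 CPM to between 58.6 and 61.8 CPM, with 2 of the 3 tested lower and 1 higher. The part of these marker lists in the results for interferon genes was not tested.

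Several of these genes share short DNA elements in their promoters, and those letters are shown first because genes that rose, fell and were barely detected hold the same ones. The interferon-stimulated response element (ISRE), the site of STAT2 complexes and of interferon regulatory factors, was searched as GAAANNGAAA, and the gamma-activated site (GAS), the site of STAT dimers, as TTCNNNGAA, both on either strand. The windows were those of RefSeq on GRCm38.p6, from 250 bases before to 50 bases after a transcription start. Of the 39 genes, 32 had a window, and 14 of these held the ISRE letters while 10 held the GAS letters, 4 of them holding both. The ISRE letters were in 3.44% of all 32851 windows and in 36.84% of the 38 windows of these genes, and the GAS letters in 8.30% and 26.32%. The 14 genes with ISRE letters were BST2, which rose, 5 that fell, 4 that were tested without passing the threshold and 4 that had too few reads to be tested. For DDX58, EIF2AK2 and IFITM3, which all fell, the first match lay within the 50 bases after the start and is not printed.

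The 250 bases before the start are given for BST2 (chr8:71537473-71537722, minus strand), which rose, for GBP2 (chr3:142620413-142620662, plus strand), which had fewer reads, and for the first of 2 annotated starts of IRF1 (chr11:53769764-53770013, plus strand), which fell. Capitals mark ISRE letters in GBP2 and GAS letters in IRF1. In BST2 they mark 2 overlapping ISRE matches and a GAS match that overlaps the first of them.
BST2: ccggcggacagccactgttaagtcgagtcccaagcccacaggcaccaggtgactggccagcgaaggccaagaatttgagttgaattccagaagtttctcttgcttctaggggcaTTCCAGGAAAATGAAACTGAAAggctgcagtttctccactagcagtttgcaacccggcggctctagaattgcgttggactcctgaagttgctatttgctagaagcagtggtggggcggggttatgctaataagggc
GBP2: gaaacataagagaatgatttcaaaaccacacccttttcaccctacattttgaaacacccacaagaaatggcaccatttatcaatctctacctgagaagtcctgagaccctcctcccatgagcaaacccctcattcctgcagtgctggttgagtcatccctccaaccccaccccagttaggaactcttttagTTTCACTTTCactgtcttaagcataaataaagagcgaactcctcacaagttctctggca
IRF1: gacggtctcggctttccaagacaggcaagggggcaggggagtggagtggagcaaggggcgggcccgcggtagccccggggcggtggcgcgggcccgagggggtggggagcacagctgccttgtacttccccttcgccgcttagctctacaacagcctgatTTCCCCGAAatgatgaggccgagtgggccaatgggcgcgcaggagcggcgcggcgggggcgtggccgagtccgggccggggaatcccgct

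For comparison, the 40 bases around the first ISRE match are given for some further genes whose match lies before the start, with the match in capitals and positions counted from 0 at the start. The match spans positions −78 to −69 in ISG15 (chr4:156200872-156200911), which fell. It spans −46 to −37 in IFITM2 (chr7:140955983-140956022), −120 to −111 in RSAD2 (chr12:26456548-26456587) and −222 to −213 in STAT2 (chr10:128270261-128270300), which did not pass the threshold. In genes with too few reads it spans −104 to −95 in IFIT1 (chr19:34640770-34640809) and −156 to −147 in IFIT3 (chr19:34583358-34583397). Only the windows of IFIT1, IFIT3 and STAT2 are on the plus strand.
ISG15: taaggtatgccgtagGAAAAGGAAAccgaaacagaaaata
IFITM2: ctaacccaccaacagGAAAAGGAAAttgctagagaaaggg
RSAD2: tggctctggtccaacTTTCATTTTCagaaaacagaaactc
STAT2: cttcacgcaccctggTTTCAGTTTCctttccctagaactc
IFIT1: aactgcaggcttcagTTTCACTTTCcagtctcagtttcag
IFIT3: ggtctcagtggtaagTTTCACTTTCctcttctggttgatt

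In JAG1-overexpressing astrocytes, more interferon response genes were lower than higher. Of the 39 genes, 27 had enough reads to be tested, 12 were lower at an adjusted p under 0.05 from edgeR's quasi-likelihood test, 4 were higher and 11 did not pass. Thus 44.4% of the tested members were lower and 14.8% higher, where 27.7% and 27.4% of all tested genes were, and their median log2 fold change was −0.32, where that of all tested genes was 0.0039. Together 59.3% of the tested members passed, close to the 55.1% of all tested genes, so that the share that changed was near the background. Changes of at least 2-fold were found for 4 members, or 14.8%, against 13.9% of all tested genes. These were IRF1, GBP2 and IFITM1, which were lower, and BST2, which rose. The JAG1-overexpressing libraries lay wholly below the control libraries for 14 of the 27 members and wholly above for 4, together 66.7%, against 62.0% of all tested genes. GBP2 and IFITM1 passed the filter on low counts only through their control libraries, so that they could be tested only with lower values in the other group, and their calls give no support to the counts above. A minimum mean of 10 counts left both untested and 10 members lower.

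**Figure D1:**
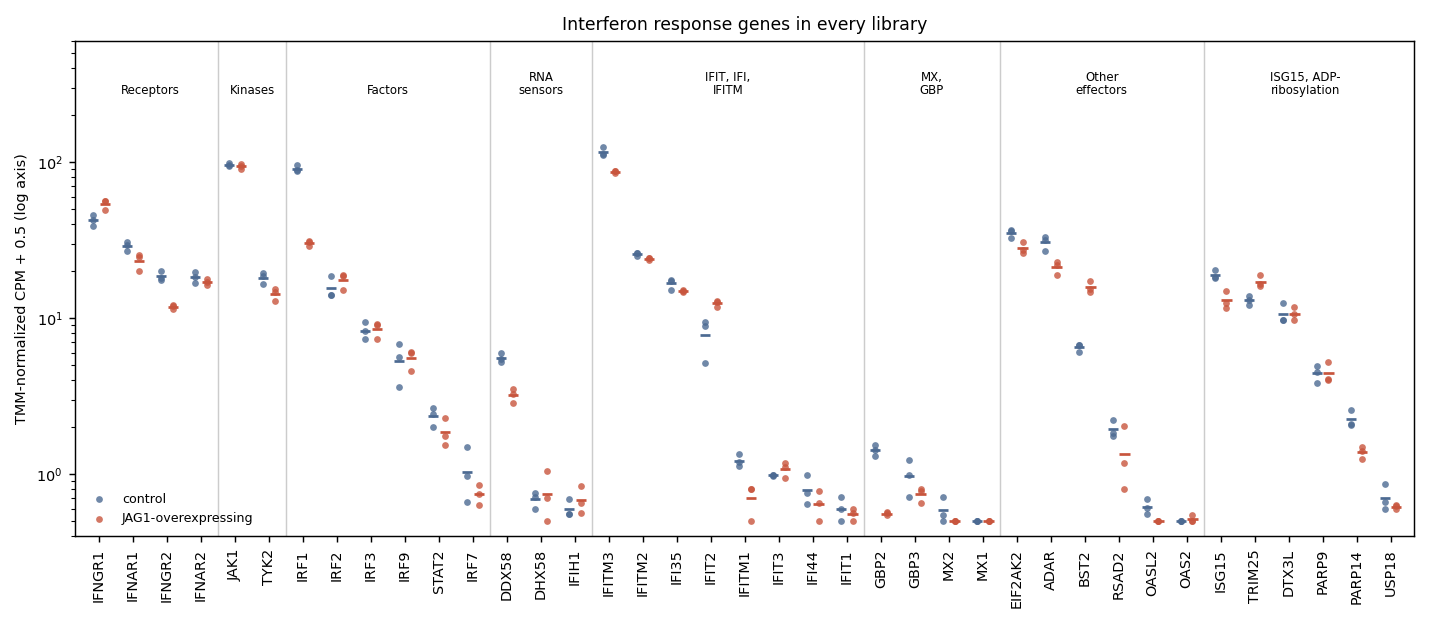
Level of each of the 39 interferon response genes in every library, as TMM-normalized CPM plus 0.5 on a log axis; points are libraries (blue control, red JAG1-overexpressing, 3 each), short lines are group means, and genes are grouped by role and ordered by their control mean. IRF1 stands near 90.2 CPM in control and 29.8 CPM in JAG1-overexpressing libraries, while 12 genes, MX1 among them, lie near the bottom in both groups.

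The summed level of the members was also lower. Sensors and effectors together had 293 ± 11.8 CPM in control and 250 ± 2.53 CPM in JAG1-overexpressing astrocytes (SD, n = 3 each), or 177 ± 4.62 and 163 ± 3.28 CPM without IFITM3, the most abundant of them. Receptors, kinases and factors together had 340 ± 5.53 and 273 ± 8.15 CPM. Without IRF1 these sums were 250 ± 7.99 and 243 ± 7.09 CPM, which overlapped between the groups. Fewer cells that express a gene and less RNA of it per cell cannot be told apart in these bulk samples.

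The receptors went both ways. IFNGR1, the ligand-binding chain of the interferon-gamma receptor, had 45.4, 42.0 and 38.3 CPM in control and 56.2, 48.7 and 55.5 CPM in JAG1-overexpressing libraries. Every JAG1-overexpressing library was above every control library, and the gene rose by a log2 fold change of 0.35 (SE 0.08, adjusted p = 0.00391). IFNGR2, the signaling chain of the same receptor, had 17.04, 17.7 and 19.5 CPM in control and 11.7, 10.9 and 11.4 CPM in JAG1-overexpressing libraries. It fell 1.59-fold with no overlap (log2 fold change −0.67, SE 0.09, adjusted p = 0.000107), so that the chains of one receptor moved in opposite directions.

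IFNAR1, a chain of the type I interferon receptor, had 29.0, 30.4 and 26.3 CPM in control and 24.1, 19.5 and 25.0 CPM in JAG1-overexpressing libraries. It was lower in the latter (log2 fold change −0.32, SE 0.10, adjusted p = 0.0218), yet the call rested on single libraries. Without control replicate 2 the log2 fold change was −0.27 (adjusted p = 0.0898), without JAG1-overexpressing replicate 2 it was −0.22 (adjusted p = 0.0834), and over all alternatives the adjusted p ran from 0.00716 to 0.0898. IFNAR2, the partner chain, had 17.9 ± 1.44 CPM in control and 16.6 ± 0.651 CPM in JAG1-overexpressing libraries (SD, n = 3), with overlapping groups (adjusted p = 0.337). IFNAR2, IFNAR1 and IFNGR2 lie close together on chromosome 16, whose 365 tested genes had a median log2 fold change of −0.00094.

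Of the receptor-bound kinases, JAK1 serves both receptor types and TYK2 the type I receptor. JAK1 had 94.8, 93.7 and 97.6 CPM in control and 90.4, 93.3 and 96.3 CPM in JAG1-overexpressing libraries. The groups overlapped, and the log2 fold change was −0.03 (SE 0.05, adjusted p = 0.649). TYK2 had 19.1, 18.0 and 16.0 CPM in control and 14.2, 12.3 and 14.9 CPM in JAG1-overexpressing libraries, and fell with no overlap (log2 fold change −0.36, SE 0.10, adjusted p = 0.0131). Without JAG1-overexpressing replicate 2 its log2 fold change was −0.28 and did not pass (adjusted p = 0.0567, the highest over its alternatives, of which the lowest was 0.00467).

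Among the transcription factors, IRF1 changed and the others did not pass the threshold. IRF1, a factor that interferon-gamma induces and that acts on promoters of antigen presentation and GBP genes, ranked as number 3 of the 39 genes by control level. It had 87.4, 88.0 and 95.3 CPM in control and 30.4, 28.6 and 30.6 CPM in JAG1-overexpressing libraries. It fell 3.02-fold (log2 fold change −1.59, SE 0.07, adjusted p = 6.64e-09), and the groups were far apart relative to their spread. Leaving out any 1 library gave values from −1.62 to −1.56. The median log2 fold change was 0.0045 over its chromosome, 11, and −0.04 over its 20 nearest tested genes.

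STAT2, which carries the type I signal to the nucleus, had 1.93, 2.15 and 1.52 CPM in control and 1.25, 1.79 and 1.03 CPM in JAG1-overexpressing libraries, with overlap (adjusted p = 0.166). IRF9, its DNA-binding partner, had 4.85 ± 1.59 and 5.04 ± 0.829 CPM, and IRF3, which is activated after nucleic acid sensing, had 7.82 ± 1.04 and 8.04 ± 1.03 CPM (SD, n = 3 each). Their groups overlapped, with adjusted p values of 0.886 and 0.828, and the sign of both differences turned when single libraries were left out. IRF2, often an antagonist of IRF1, had 18.3, 13.5 and 13.7 CPM in control and 18.4, 18.1 and 14.6 CPM in JAG1-overexpressing libraries (adjusted p = 0.306). Control replicate 1 stood apart from the other controls, and without it IRF2 was higher by a log2 fold change of 0.33 (adjusted p = 0.0219, with a range from 0.0219 to 0.630 over the alternatives). IRF7, the factor that amplifies type I interferon production, had between 2 and 20 reads in a library and was not tested.

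**Figure D2:**
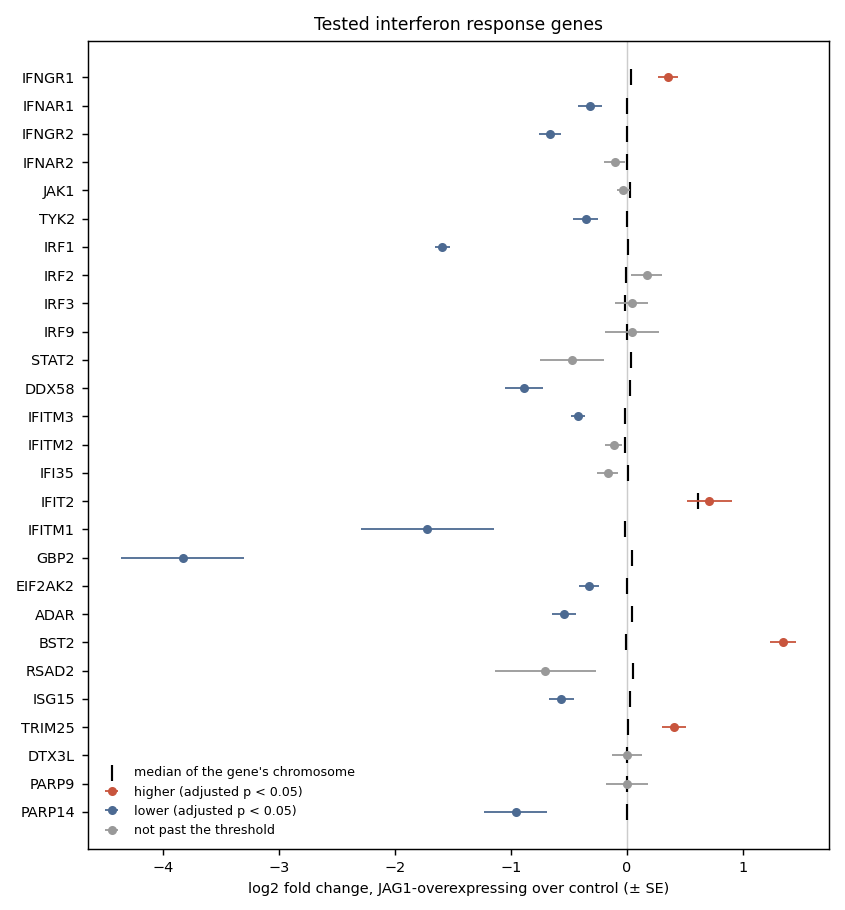
Log2 fold change of the 27 tested members, JAG1-overexpressing over control, with SE bars from edgeR (3 libraries per group); blue points were lower and red points higher at an adjusted p under 0.05, grey points did not pass, and black ticks give the median of each gene's chromosome. IRF1 at −1.59 and BST2 at 1.34 lie far from their chromosomes' medians while IFIT2 at 0.71 lies beside its own at 0.61; the fitted value of GBP2 depends on its 3 reads in JAG1-overexpressing libraries.

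RNA sensors start the production of interferon. DDX58, which encodes the sensor RIG-I, had 4.74, 4.99 and 5.44 CPM in control and 3.04, 2.75 and 2.37 CPM in JAG1-overexpressing libraries. It fell 1.85-fold with no overlap between the groups (log2 fold change −0.89, SE 0.16, adjusted p = 0.000808). IFIH1, which encodes the related sensor MDA5, had at most 5 reads in a library and DHX58, which encodes their regulator LGP2, at most 11, so that neither was tested.

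The IFIT proteins bind foreign RNA and the IFITM proteins block virus entry at membranes. IFITM3, the most abundant member in control libraries, had 125, 113 and 111 CPM there and 87.9, 84.7 and 86.8 CPM in JAG1-overexpressing libraries. It fell 1.34-fold with no overlap (log2 fold change −0.42, SE 0.06, adjusted p = 0.000128). IFITM2, its neighbour on chromosome 7, had 24.6, 25.8 and 25.7 CPM in control and 22.98, 23.7 and 23.6 CPM in JAG1-overexpressing libraries. The groups did not overlap, but the log2 fold change of −0.12 did not pass (SE 0.07, adjusted p = 0.204). IFITM1 had 17, 13 and 12 reads in control and 6, 0 and 5 reads in JAG1-overexpressing libraries, a log2 fold change of −1.72 (SE 0.57), given as a description because the gene was tested only through its control libraries. Its call was lost without control replicate 2 (log2 fold change −1.75, adjusted p = 0.0558). The IFITM genes are similar in sequence, and how reads that fit several of them were counted is not given in the sources used here.

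IFIT2 was the only one of the IFIT genes listed with enough reads. It had 4.64, 8.38 and 8.95 CPM in control and 11.3, 12.2 and 12.3 CPM in JAG1-overexpressing libraries, with control replicate 1 far below the other controls. It rose by a log2 fold change of 0.71 (SE 0.20, adjusted p = 0.00956), or by 0.46 without control replicate 1 (adjusted p = 0.00394, within a range from 0.000142 to 0.0499 over the alternatives). It lies on chromosome 19, which had 422 tested genes, 313 of them higher, and a median of 0.61, and the median of its 20 nearest tested genes was 0.80. The rise of IFIT2 was therefore of the size found for the genes around it, and a response of IFIT2 itself and the shift of its chromosome cannot be told apart. IFIT1 had at most 4 reads in a library and IFIT3 between 9 and 10. IFIT3B, a near-identical copy of IFIT3, had 0.101 ± 0.0988 and 0.116 ± 0.0482 CPM (SD, n = 3) in the groups, and reads could be split between the copies. IFI35, which binds other interferon-induced proteins, had 16.2 ± 1.32 and 14.4 ± 0.190 CPM (SD, n = 3). All JAG1-overexpressing libraries were below the controls, without passing the test (adjusted p = 0.145). IFI44 had at most 9 reads in a library.

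**Figure D3:**
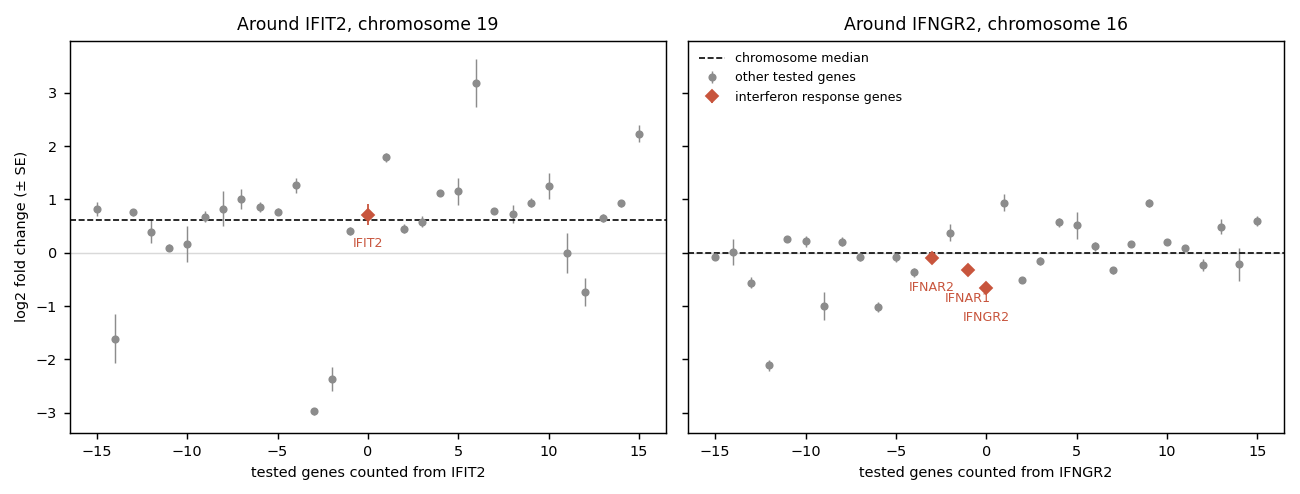
Log2 fold change (JAG1-overexpressing over control, with SE) of the 15 tested genes on each side of IFIT2 on chromosome 19 (left) and of IFNGR2 on chromosome 16 (right), in gene order; red diamonds are interferon response genes, grey points other tested genes, and the dashed line is the median of the chromosome. Around IFIT2, 21 of 30 neighbours were higher and 4 lower; around IFNGR2, 9 of 28 were higher and 7 lower.

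The MX and GBP proteins are large GTPases that act against viruses and intracellular bacteria. GBP2, which responds strongly to interferon-gamma, had 19, 15 and 20 reads in control and 1 read in each JAG1-overexpressing library. Relative to library size the pooled reads were 15.8 times higher in control (95% exact binomial interval from 5.14 to 79.2, for counting error only). It was tested only because of its control libraries, and its values are given as a description. GBP3 had 10, 4 and 14 reads in control and 3, 4 and 5 reads in JAG1-overexpressing libraries, too few to be tested. MX1 had no read in any library and MX2 had 1, 0 and 4 reads in control and none in JAG1-overexpressing libraries. A count of 0 allows up to 3 reads, so that these levels show only that the genes were near or under the limit of detection.

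BST2 rose most among the members. It encodes tetherin, which holds budding virus particles at the cell surface. It had 6.27, 5.58 and 6.22 CPM in control and 16.7, 14.9 and 14.2 CPM in JAG1-overexpressing libraries, a 2.54-fold rise (log2 fold change 1.34, SE 0.11, adjusted p = 1.69e-06). The groups were far apart relative to their spread. The median was −0.01 over its chromosome, 8, and −0.02 over its 20 nearest tested genes. Under the alternatives the rise lay between 1.27 and 1.40.

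EIF2AK2, which encodes PKR, a kinase that stops translation on double-stranded RNA, had 35.7, 36.1 and 32.4 CPM in control and 30.5, 26.9 and 25.5 CPM in JAG1-overexpressing libraries. ADAR, whose product edits double-stranded RNA and keeps it from being sensed, had 32.7, 31.2 and 26.5 CPM in control and 18.4, 21.5 and 22.4 CPM in JAG1-overexpressing libraries. Both fell with no overlap, EIF2AK2 by a log2 fold change of −0.33 (SE 0.09, adjusted p = 0.00800) and ADAR by −0.54 (SE 0.10, adjusted p = 0.00105). RSAD2, which encodes viperin, had 1.73, 1.34 and 1.26 CPM in control and 1.55, 0.688 and 0.304 CPM in JAG1-overexpressing libraries. JAG1-overexpressing replicate 1 lay among the controls and the difference did not pass (log2 fold change −0.70, adjusted p = 0.191). Without that library it was −1.56. RSAD2 then passed the filter on low counts only with its control libraries, because JAG1-overexpressing replicate 3 had 5 reads, so that this value is given as a description. Over the alternatives the adjusted p ran from 0.0150, in that fit, to 0.519. OAS2, of the family that makes the activator of RNase L, and its relative OASL2 had at most 1 and 4 reads in a library.

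ISG15 is a ubiquitin-like protein that is attached to other proteins, USP18 removes it, and TRIM25 is a ubiquitin ligase that activates RIG-I. ISG15 had 19.999, 17.6 and 17.9 CPM in control and 12.01, 14.4 and 11.2 CPM in JAG1-overexpressing libraries. It fell 1.48-fold with no overlap (log2 fold change −0.57, SE 0.11, adjusted p = 0.00114). TRIM25 had 12.5, 11.7 and 13.4 CPM in control and 15.5, 16.0 and 18.4 CPM in JAG1-overexpressing libraries. It rose with no overlap (log2 fold change 0.40, SE 0.10, adjusted p = 0.00614), opposite to DDX58, which encodes the sensor it modifies. USP18 had at most 7 reads in a library.

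PARP9 and DTX3L form a complex of an ADP-ribosyltransferase-like protein and a ubiquitin ligase, and lie side by side with PARP14 on chromosome 16. DTX3L had 11.9, 9.23 and 9.26 CPM in control and 10.1, 11.2 and 9.29 CPM in JAG1-overexpressing libraries, and PARP9 had 3.92 ± 0.563 and 3.96 ± 0.685 CPM (SD, n = 3). Their groups overlapped, with log2 fold changes of 0.0013 (SE 0.13, adjusted p = 0.994) and −0.00094 (SE 0.18, adjusted p = 0.997). PARP14 had 2.07, 1.61 and 1.57 CPM in control and 0.997, 0.757 and 0.911 CPM in JAG1-overexpressing libraries, and fell with no overlap (log2 fold change −0.96, SE 0.27, adjusted p = 0.0103). Without control replicate 1 the value was −0.82 (adjusted p = 0.0501, the highest over its alternatives, which began at 0.00309).

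The 12 members with too few reads were IRF7, IFIH1, DHX58, IFIT1, IFIT3, IFI44, MX1, MX2, GBP3, OAS2, OASL2 and USP18. None exceeded 20 reads in a library, and the highest level of any of them in a library was 0.988 CPM. These include many of the genes best known as strong markers of an interferon response. The interferons themselves were near or under detection too: the 21 interferon genes listed summed to at most 0.314 CPM in a library.

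In the other lists of the pathway, genes with at least 1 CPM on average are named, with their log2 fold changes, and no list was tested against another. IFI47 and IRF5, under that level, are named only for how they passed the filter. Among 85 further interferon-induced genes the test covered 47, of which 15 were higher and 14 lower (median −0.12). These were 31.9% and 29.8%, near the 27.4% and 27.7% of all tested genes. LGALS9, a galectin, rose most (1.54, SE 0.15, adjusted p = 4.72e-06), followed by the GTPase gene GBP4 (1.40, SE 0.29, adjusted p = 0.00155). LY6A fell most, by −2.13 (SE 0.17, adjusted p = 1.12e-06) on chromosome 15, whose median was −0.53. TRIM30A was next, with a log2 fold change of −1.60 (SE 0.39). TRIM30A had 6, 10 and 22 reads in JAG1-overexpressing libraries, so that it passed the filter on low counts only with its control libraries. Its value is given as a description. IFI47, with 16, 18 and 13 reads in control and 0, 1 and 0 reads in JAG1-overexpressing libraries, passed the filter the same way. Both are among the 14 lower genes, and their calls give no support to that count.

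Of 24 genes of antigen presentation and the immunoproteasome, 17 were tested, 3 were higher and 7 lower (median −0.14), or 17.6% and 41.2%. Of all tested genes, 27.4% were higher and 27.7% lower. PSME2 and TAP1 fell most, by −0.78 and −0.72 (adjusted p = 1.11e-05 and 0.0145), and H2-M3 and CD274 rose most, by 1.79 and 0.97 (adjusted p = 1.62e-05 and 0.0142). CD274 lies on chromosome 19, whose median was 0.61, and its level was low, at 0.952 ± 0.141 CPM in control and 1.89 ± 0.474 CPM in JAG1-overexpressing libraries (SD, n = 3). Of 27 genes of nucleic acid sensing, 23 were tested, 6 were higher and 7 lower, with a median of 0.11. These were 26.1% and 30.4%, near the shares of all tested genes. TBKBP1, an adaptor of the kinase TBK1, went from 12.9 ± 1.01 to 0.0764 ± 0.0206 CPM (SD, n = 3). AIM2, a DNA sensor, had 49, 31 and 39 reads in control and 9, 6 and 3 reads in JAG1-overexpressing libraries (log2 fold change −2.52, SE 0.35). Both genes passed the filter on low counts only through their control libraries, so that their values are given as a description. They are among the 7 lower genes of this list, and their calls give no support to that count. RNASEH2C, on chromosome 19, and TMEM173 rose most, by 1.52 and 0.49 (adjusted p = 1.12e-08 and 0.000333).

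Of 18 regulators of interferon signaling, 13 were tested, 4 were higher and 2 lower, with a median of 0.10. These were 30.8% and 15.4%, against 27.4% and 27.7% of all tested genes. IRF5, counted as lower, had 34, 38 and 23 reads in control and 3, 10 and 0 reads in JAG1-overexpressing libraries. It passed the filter on low counts only through its control libraries, so that its call gives no support to the count. JAK2, the kinase bound to IFNGR2, rose by 1.29 (SE 0.08, adjusted p = 2.49e-07) and lies on chromosome 19 with its median of 0.61. PTPN1, a phosphatase that acts on JAK2 and TYK2, rose by 0.69 (SE 0.07, adjusted p = 1.01e-05), and PTPN6 fell by −1.11 (SE 0.16, adjusted p = 0.000133).

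**Figure D4:**
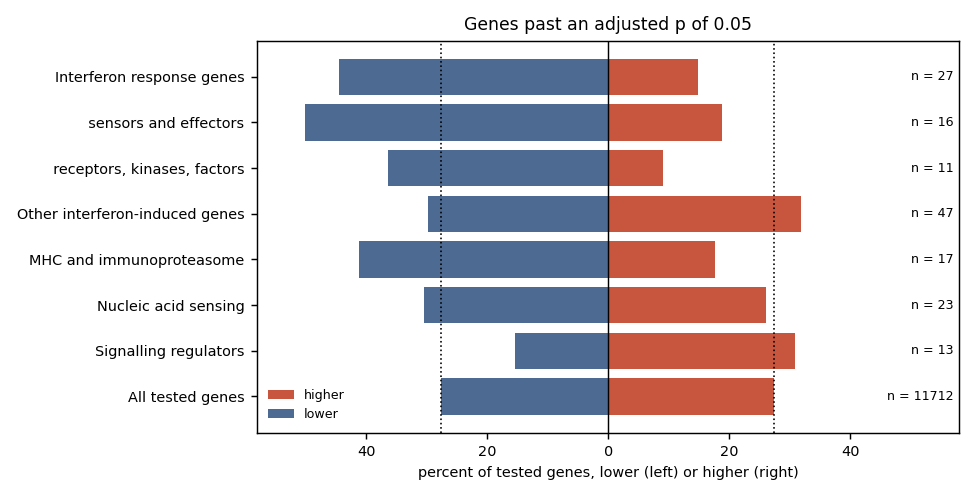
Percent of tested genes that were lower (blue, left) or higher (red, right) under JAG1 overexpression, by an adjusted p below 0.05, for the interferon response genes, their subgroups and other lists, with the number tested at the right; dotted lines mark all tested genes at 27.7% lower and 27.4% higher. The interferon response genes were lower in 44.4% and higher in 14.8%, and the other interferon-induced genes in 29.8% and 31.9%.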

How the data were processed

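Total RNA of 6 astrocyte samples was made into QuantSeq 3′ libraries. Per the file headers, the authors deposited raw read counts per gene symbol and a normalized log2 value. Submitters' processing notes name Bowtie2, bedtools, edgeR, GRCm38 and mm10; their settings are not given in the sources used here. Raw counts were used, and log2 values for 1 alternative only. In R 4.3.3, edgeR 4.0.16 (filterByExpr at a minimum count of 10, TMM, quasi-likelihood test of group, Benjamini-Hochberg adjustment over 11712 genes, threshold 0.05) compared the groups; SEs came from the F statistic. The smallest two-sided p of an exact permutation test at this size is 0.1. On simulated data with 2-fold changes, 94.9% of 196 changed genes were recovered among 11592. The simulation gave every gene the same dispersion and changed far fewer genes than were called in the data. Smaller changes were not simulated. The alternatives were DESeq2 1.42.0, other scalings and filters, a replicate block, limma 3.58.1 and leaving out each library. RefSeq GRCm38.p6 gave chromosomes and promoters. Members and lists were chosen with earlier results of these data known. By the naming rule, members past the threshold and 2-fold and the highest member of each role got values per library. Each other list gave at most 2 rises and 2 falls with a mean of at least 1 CPM. Values per library of further members were added after they were seen, and IFI47 and IRF5 were named later for how they passed the filter.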

Additional observations from a re-analysis of the deposited data

How the results depend on the processing

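The numbers of members that were higher and lower, 4 and 12, stayed within 1.5 times under every one of the 14 alternatives, between 4 and 5 and between 10 and 13, and so did those of all tested genes. Of the 16 called members, 12 kept direction and call in each alternative in which they were tested. GBP2 is among the 12, but it passed the filter only through its control libraries, so that its kept call adds no support. IFNAR1, IFITM1, TYK2 and PARP14 lost the call in some alternatives, among them IFNAR1 and IFITM1 with limma on the authors' log2 values (adjusted p = 0.0572 and 0.0558). With a mean of at least 10 counts IFITM1 and GBP2 were not tested. Of the members whose difference did not pass, only DTX3L, PARP9, IRF3 and IRF9 turned in sign in some alternatives. DTX3L was −0.00087 with DESeq2, −0.024 with upper-quartile scaling and −0.0012 without a filter, and PARP9 was 0.00086 with DESeq2 and 0.013 with library size alone. With each library left out, DTX3L ran from −0.068 to 0.14, PARP9 from −0.14 to 0.089, IRF3 from −0.048 to 0.14 and IRF9 from −0.19 to 0.27; the cause was not tested. Whether libraries with the same number were paired is not given in the sources used here. The correlations of their deviations were low, at 0.148, 0.0614 and 0.119, although each library correlated best with its own number. With a replicate block, 4 members were higher and 12 lower, and 3380 and 3331 of all tested genes. Without a filter on low counts, 11 of the 12 untested members entered the fit and none passed. Reads limit these 12 and IFITM1 and GBP2.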
